A study of Mus musculus with 60 samples.

Results

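The genes described here encode the subunits of the proteasome, the protease that degrades ubiquitin-tagged proteins, together with its activators, its inhibitor and its assembly chaperones. They were chosen by symbol: every gene whose whole symbol is Psm, a letter from a to g and a number, without the immunoproteasome genes Psmb8, Psmb9 and Psmb10. This gave 44 genes among 14442 genes with a symbol on the array, and 37 of them passed the probe filter, each read from 1 probe. The 37 were 13 of 16 core subunits (7 alpha, 6 beta), 17 of 20 Psmc and Psmd genes of the cap (4 ATPases, 10 non-ATPase subunits and the 3 cap assembly chaperones Psmd5, Psmd9 and Psmd10, counted below as cap genes), 3 of 3 activators (Psme1, Psme3, Psme4) and 4 of 5 inhibitor and core assembly genes (Psmf1, Psmg1, Psmg2, Psmg3). Psma3, Psmb7, Psmb11, Psmc4, Psmc6, Psmd4 and Psmg4 failed the filter and were not tested. No probe was assigned to Psme2 alone, and its retrocopy Psme2b, Psmc3ip and Psme3ip1 fall outside the rule.

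The RNA came from primary hepatocytes of male mice aged 9-10 weeks, cultured in serum-free medium and given recombinant HGF at 50 ng per ml. HGF is hepatocyte growth factor, the ligand of the receptor tyrosine kinase Met. Knockout (KO) mice were Alb-Cre +/-; Met Fl/Fl of strain 129SV/C57BL6, in which the albumin promoter drives Cre in hepatocytes, and wild-type (WT) mice were Cre controls of strain C57BL, so genotype and strain cannot be told apart. Cells were taken before HGF and 0.5, 2, 12 and 24 h into treatment, in triplicate per genotype (10 groups, 30 replicates; 3 mice per the labels). A replicate filled 2 two-colour arrays, once in Cy5 and once in Cy3, beside a pool of WT hepatocyte RNA (60 arrays). Later untreated cultures were not analysed here, so HGF cannot be told apart from time in culture.

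The core particle is a stack of rings in which the alpha subunits form the gate and 3 of the beta subunits, Psmb5, Psmb6 and Psmb7, carry the proteolytic sites. The cap binds the ends of the core; its Psmc subunits are ATPases that unfold substrates, and its Psmd subunits bind ubiquitin chains, remove them through the deubiquitinase Psmd14 and hold the complex together. The Psme activators open the core without the cap. Hepatocytes use the proteasome for the turnover of regulatory and damaged proteins, and proteasome genes are known to be induced together when the protease is inhibited, through Nfe2l1, with Nfe2l2 acting in oxidative stress, both at antioxidant response elements in their promoters.

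Promoter sequences are shown because members that share regulators can be compared there with their values. RefSeq promoter windows of 300 bases (250 before to 50 after the start, GRCm38.p6) were found for 36 of the 44 genes, 38 windows in all. The letters TGACNNNGC, the core of the antioxidant response element, were searched on both strands and are in capitals. They occur in 6 of the 38 windows (15.8%), those of Psmb5, Psmb6, Psmc6, Psmd9, Psmd12 and Psme4, against 12.4% of the 32851 promoter windows of all genes. Psmb5 (chr14:54617946-54618245, minus strand) and Psmb6 (chr11:70525107-70525406, plus strand) are catalytic subunits with the letters at -47 and -9 from the start, Psmd12 (chr11:107479278-107479577, plus strand) is the member with the lowest KO against WT value averaged over time and has them at -247 on the opposite strand, and Psmd1 (chr1:86064369-86064668, plus strand), the member that varied most, has none.
Psmb5: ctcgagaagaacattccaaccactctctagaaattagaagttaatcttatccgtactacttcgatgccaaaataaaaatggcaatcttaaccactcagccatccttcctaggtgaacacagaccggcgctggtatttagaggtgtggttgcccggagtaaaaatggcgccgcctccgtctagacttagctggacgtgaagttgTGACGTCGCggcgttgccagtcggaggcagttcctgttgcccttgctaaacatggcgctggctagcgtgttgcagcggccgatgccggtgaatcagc
Psmb6: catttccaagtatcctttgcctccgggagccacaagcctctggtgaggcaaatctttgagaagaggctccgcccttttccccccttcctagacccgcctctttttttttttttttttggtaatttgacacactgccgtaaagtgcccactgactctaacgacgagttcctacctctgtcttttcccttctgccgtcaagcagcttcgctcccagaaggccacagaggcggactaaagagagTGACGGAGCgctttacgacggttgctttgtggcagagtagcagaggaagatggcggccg
Psmd12: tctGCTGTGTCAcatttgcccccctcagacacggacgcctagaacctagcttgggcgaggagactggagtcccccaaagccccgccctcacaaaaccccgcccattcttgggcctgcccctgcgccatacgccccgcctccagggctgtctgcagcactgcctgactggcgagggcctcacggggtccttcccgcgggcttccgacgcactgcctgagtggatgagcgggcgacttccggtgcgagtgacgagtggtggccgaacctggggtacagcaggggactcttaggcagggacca
Psmd1: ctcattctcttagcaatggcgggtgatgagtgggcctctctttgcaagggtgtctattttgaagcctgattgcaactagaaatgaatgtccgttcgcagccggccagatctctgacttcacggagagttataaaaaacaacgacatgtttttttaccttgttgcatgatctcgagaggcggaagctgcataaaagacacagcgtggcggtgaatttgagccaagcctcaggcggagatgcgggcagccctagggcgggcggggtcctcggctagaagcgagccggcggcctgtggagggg
Psmb3 and Psmd7, which are also called in comparisons below, are not shown. The window of Psmb3 holds no match, and no window was found for Psmd7. A match is a run of letters and was not tested as a binding site.

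Some properties of the arrays bear on every value below. Values are taken as log2 ratios of the sample over the pooled WT reference, a direction that is likely but not stated. Hbegf, an early gene of growth factor signalling, was at 1.54, 1.68 and 1.70 in WT replicates at 0.5 h of HGF. Against untreated WT it was higher by 0.40 on Cy5 arrays and by 2.09 on Cy3 arrays. Its Cy5 ratio was also positive in untreated WT (1.79, 0.52 and 0.28), so a positive ratio on Cy5 arrays does not by itself show the direction. Ratios of this kind do not compare the abundance of 2 genes, and the hepatocyte label could be checked only relative to WT hepatocytes, where 7 of 8 hepatocyte markers passed the filter. The Met probe was not lower in KO (0.08 averaged over time, SE 0.08, adjusted p = 0.648); whether it lies in the deleted part is not known here, so it checks nothing. In 23 of 30 replicates the 2 dye orientations correlated negatively over probes, and 1 array, the Cy5 array of WT untreated replicate 3, ran against the others of its dye (in all 19 same-dye pairs with r below -0.3). Residual SD ranged over the groups between 0.167 (WT at 2 h) and 0.430 (KO at 24 h), where replicate 2 held single-array extremes. The arrays fall into 4 runs of label numbers, called sets A to D. A replicate is placed by its Cy5 array, and its Cy3 array is in the same set except for WT 24 h replicate 2 (placed in set C, Cy3 array in set B). Set D holds the 0.5 h replicates and the 2 h replicates except KO replicate 3 (set A). Set C holds those of 12 h, and sets A, B and C divide the rest.

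The members shared a dye effect. Of the 37, 36 read higher with the sample in Cy5 than in Cy3, by a median of 0.38 on the log2 scale, against 61.4% of all probes and a median of 0.13. The difference was 0.47 in core genes, 0.37 in cap genes and 0.32 in activators. The mean of both orientations was tested, and the values of each orientation are given for the member median of most comparisons.

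Core and cap genes stayed close to each other in every group. The median of the 13 core genes was above that of the 17 cap genes in 15 of 30 replicates and had the same sign in 27 of 30, and the gap lay between -0.22 and 0.12. The activators were looser, at -0.45 to 0.37 relative to the core median. All 37 members together had a median of 0.13 ± 0.07, 0.15 ± 0.11, 0.04 ± 0.05, 0.13 ± 0.09 and 0.04 ± 0.22 in KO cells untreated and at 0.5, 2, 12 and 24 h (SD, n = 3). In WT cells the same medians were 0.17 ± 0.17, 0.32 ± 0.04, 0.04 ± 0.08, 0.28 ± 0.07 and 0.09 ± 0.34. The highest medians were thus WT at 0.5 h and at 12 h, the lowest were both genotypes at 2 h and KO at 24 h, and at 24 h the SD of each genotype exceeded the difference between them. The member median was -0.19, -0.03 and -0.30 in the 3 replicates of set B (KO 24 h replicate 3, WT untreated replicate 3 and WT 24 h replicate 3), and 0.04 to 0.36 in the 14 replicates of set C. It was -0.05 to 0.34 in the 11 replicates of set D and 0.07 to 0.09 in the 2 of set A. Set B thus lay below set C, while set D overlapped both and set A lay within the range of set C. The part of array set in the differences was not tested beyond the fits that hold it fixed.

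**Figure D1:**
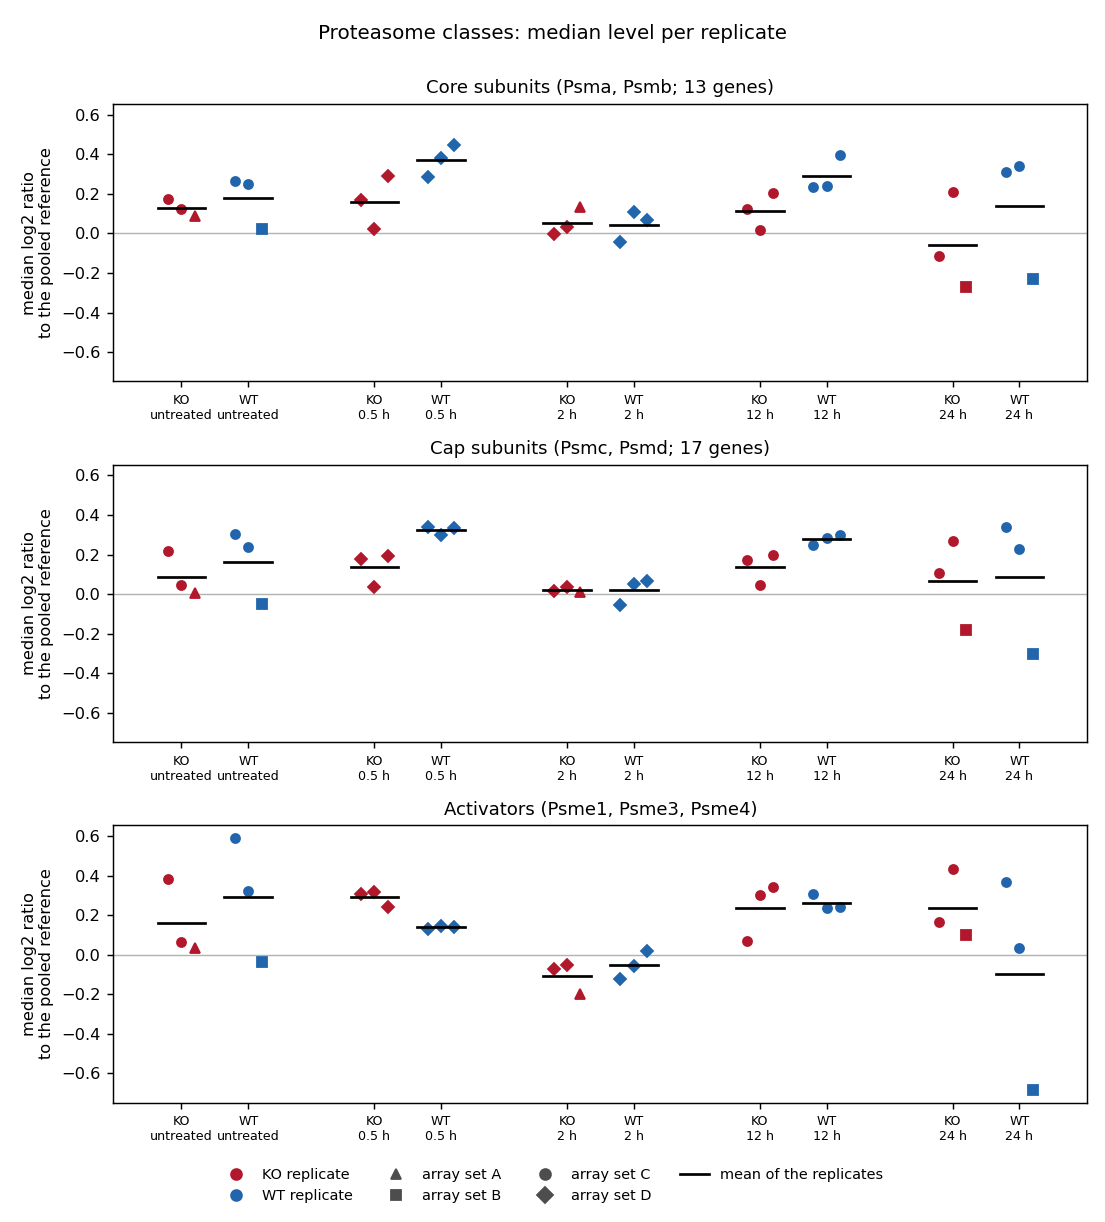
Median log2 ratio to the pooled reference over the core, cap and activator genes in each replicate (points; shape gives the array set), with KO left of WT at each time and the bar at the mean of 3 replicates. Core and cap follow each other, their KO means lie below their WT means at 0.5 and 12 h, the activators lie higher in KO at 0.5 h, and the square points of array set B are the lowest of their groups in the core and cap panels.

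Over the 10 groups, the median member varied about as much as the median probe, and a smaller share of members varied widely. The span between the highest and lowest group mean had a median of 0.53 over the members, against 0.57 over all tested probes. It exceeded 1 in 2 of 37 members, Psmd1 (2.14) and Psmg3 (1.23), against 15.4% of probes. The smallest span was 0.21, and 14 members stayed below 0.5.

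KO and WT cells were compared at each time to ask how loss of Met changes the transcripts. Few members were called, where called means a Benjamini-Hochberg adjusted p under 0.05 over 14580 probes in limma. In untreated cells 0 of 37 members were called (0.0617% of all probes), with 0 at an unadjusted p under 0.05 (5.22% of probes). At 0.5 h 0 were called (4.3% of probes), with 5 at the unadjusted level (20.6% of probes). At 2 h 0 were called (0.432%), with 1 unadjusted (8.61%), and at 12 h 0 were called (2.84%), with 0 unadjusted (14.1%). At 24 h 1 member, Psmb3, was called, in the lower direction (4.77% of probes in either direction, 2.36% lower), with 7 unadjusted (19.5% of probes). Averaged over the 5 times 2 members were called, Psmd12 and Psmd7, both lower in KO (10.1% of probes in either direction, 5.1% lower), with 9 unadjusted (22.8% of probes). At 24 h and averaged, 1 and 2 of 37 members in the lower direction are close to the background of that direction.

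The sizes were small and mostly on the KO-lower side. Averaged over the times, 28 of 37 members were below 0, with a median of -0.085, against 51.5% of probes and a median of -0.004. The median was -0.072 on the Cy5 arrays and -0.062 on the Cy3 arrays, and 21 members were below 0 on both. By role the averaged medians were -0.11 for core genes (11 of 13 below 0), -0.077 for cap genes (13 of 17), 0.023 for activators (1 of 3) and -0.051 for the inhibitor and core chaperones (3 of 4). All 6 beta subunits were below 0. No test was run on a class as a whole.

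The member median was furthest below 0 at 0.5 h (-0.17) and 12 h (-0.115). At 0.5 h core genes had a median difference of -0.22 (12 of 13 below 0) and cap genes one of -0.15 (16 of 17), while activators were at 0.12. Of all probes 55.4% were below 0 there, with a median of -0.037. Within the cap the medians were -0.26 for non-ATPase subunits, -0.10 for ATPases and -0.095 for the assembly chaperones. The core median was 0.17, 0.02 and 0.29 in KO replicates, against 0.28, 0.38 and 0.45 in WT replicates. The cap median was 0.18, 0.03 and 0.19 in KO replicates, against 0.34, 0.30 and 0.34 in WT replicates. The cap medians of the genotypes did not overlap, and the core medians overlapped only in that the highest KO replicate was slightly above the lowest WT replicate. At 12 h the core difference was -0.16 (11 of 13 below 0) and the cap difference -0.19 (14 of 17), against 50.1% of probes, with activators at 0.10. The replicates of 20 members did not overlap at 0.5 h (38.3% of all probes) and those of 13 at 12 h (27.9% of probes). In untreated cells that held for 2 members (9.6% of probes), at 2 h for 7 (26.9%) and at 24 h for 1 (15.7%).

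The dyes and the normalization set limits on this shift. In untreated cells the member median was 0.08 on Cy5 arrays and -0.14 on Cy3 arrays, where the value as tested was -0.035. At 0.5 h the member median was -0.10 on Cy5 arrays and -0.29 on Cy3 arrays, and 0.02 once 3 dye profiles were regressed out, where the value as tested is -0.17; the median of all probes was -0.037 there. At 12 h it was -0.27 on Cy5 arrays and 0.0047 on Cy3 arrays, where the mean of both was -0.115. At 24 h the member median as tested was -0.083 (23 of 37 below 0, against 49.3% of probes). It was -0.068 on Cy5 arrays, -0.031 on Cy3 arrays and -0.0073 with dye profiles removed. The fit within array set C was chosen after seeing the data. Its member medians were -0.13 untreated (27 of 37 below 0, against 51.2% of probes) and -0.115 at 12 h (26 of 37, against 50.1%). At 24 h it gave -0.15 (29 of 37, against 53.6%), with WT replicate 2 included although its Cy3 array is in set B. Within set C 0 members were called, and the share of all probes called is not given here. At 2 h the members were split, 19 below 0 and 18 above, with a median of -0.0057 (-0.099 on Cy5 and 0.076 on Cy3 arrays).

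Some markers of liver cell types differed with genotype too. The median of 4 tested endothelial markers (of 8) was -0.33, -0.59 and -0.31 in KO replicates at 12 h, against 0.14, 0.20 and -0.06 in WT replicates, and at 0.5 h it was -0.32, -0.29 and -0.42 in KO, against 0.09, 0.05 and 0.01 in WT. At 0.5 h the hepatocyte gene Cps1 rose in KO (1.18), and the stellate cell gene Dcn (-1.13) and the bile duct gene Cftr (-1.17) fell. Other markers did not all go the same way. The list median was -0.11 over 7 hepatocyte markers (-0.72 to 1.18) and 0.24 over 3 stellate cell markers (-1.13 to 0.25). It was -0.38 over 5 bile duct markers (-1.17 to 0.10). Dcn was at -0.39 on Cy5 and -1.88 on Cy3 arrays, and Cftr at -0.34 on Cy5 and -2.00 on Cy3 arrays. Dnase1l3 of endothelial cells fell at 12 h (-1.32) and 24 h (-0.89), Krt7 of bile ducts fell at 24 h (-0.55), and Mpeg1 of macrophages rose there (1.23). The 24 h list medians were -0.23 over 4 endothelial, -0.15 over 5 bile duct and 0.14 over 5 macrophage markers. Each of these lists held values on both sides of 0 at 24 h. Averaged over time the endothelial genes Clec4g (-0.32) and Dnase1l3 (-0.48) and the bile duct gene Cftr (-0.39) fell in KO, and the hepatocyte gene Cps1 (0.49) and the macrophage gene Mpeg1 (0.36) rose. The averaged list medians were -0.24 over endothelial and 0.18 over macrophage markers. They were -0.11 over bile duct markers (-0.39 to 0.08) and 0.09 over hepatocyte markers (-0.20 to 0.49). Their part in the member values was not tested, and in RNA from whole cultures fewer cells of a type and less RNA per cell cannot be told apart.

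**Figure D2:**
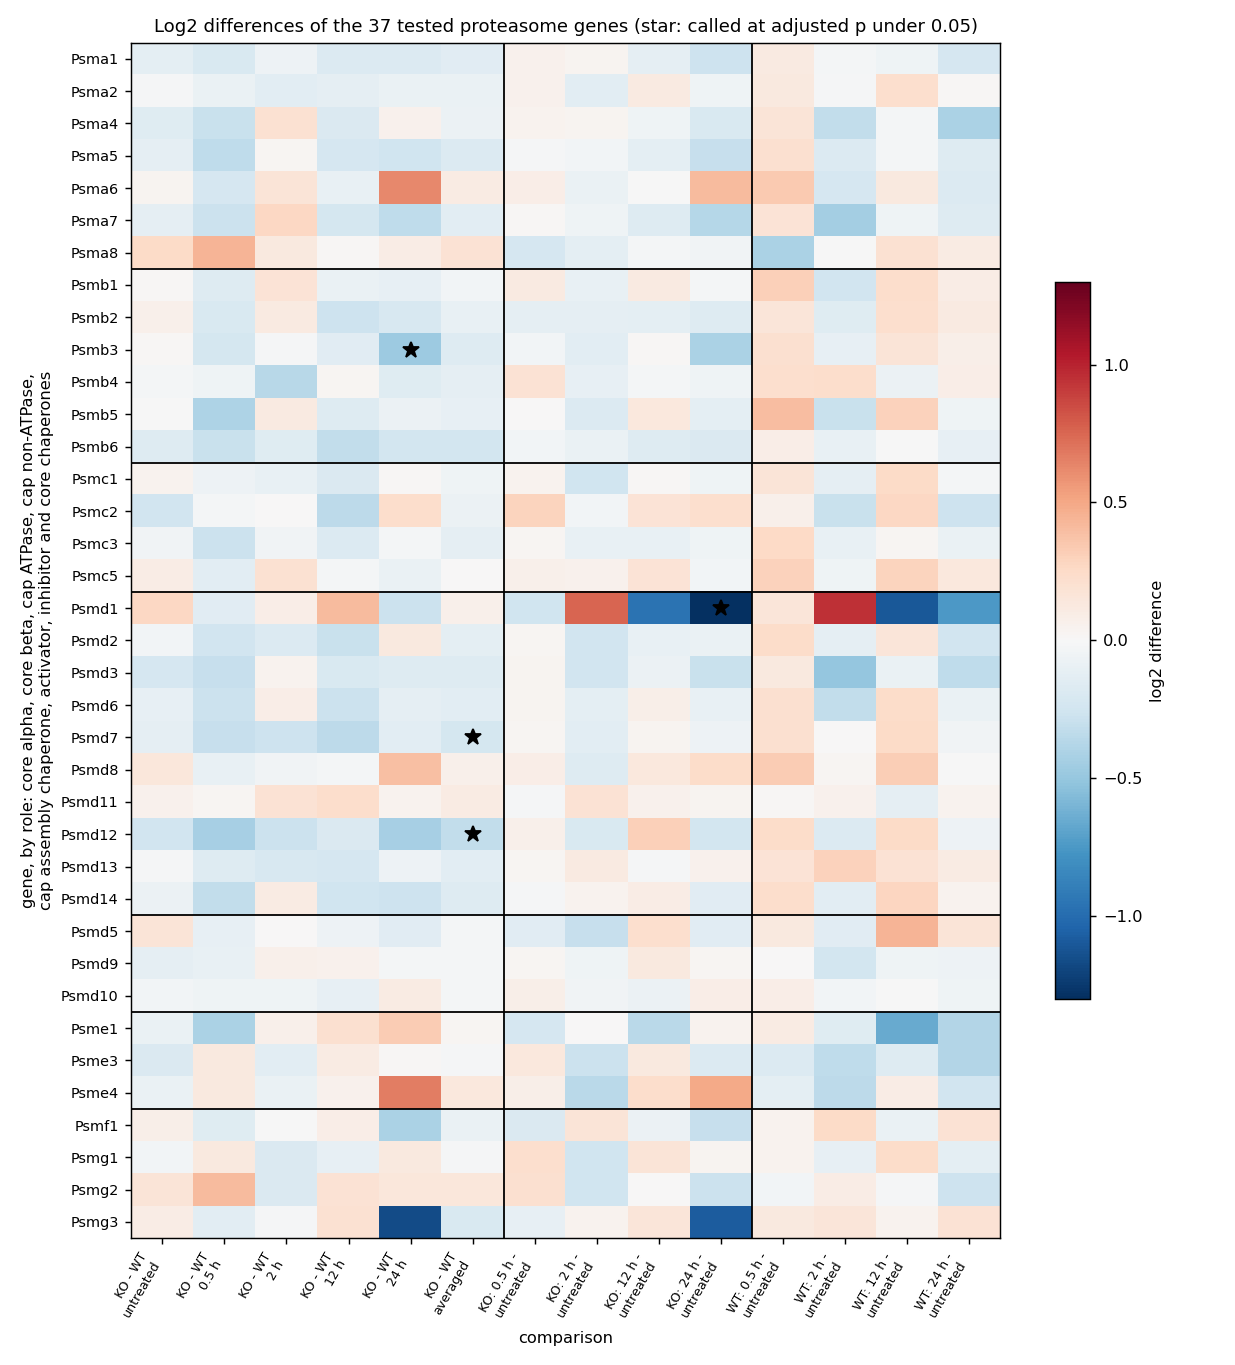
Log2 difference of each of the 37 tested genes (rows, by role) in KO against WT at the 5 times and averaged, and in each HGF time against untreated in KO and in WT (columns); blue is lower and red higher in the first-named group, and stars mark the 4 values called in limma. Pale colours prevail outside Psmd1 and the KO 24 h values of Psmg3, Psma6 and Psme4.

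Among the cap subunits, Psmd12, a structural subunit of the lid, was the member with the lowest averaged value. In KO replicates it was at 0.16, 0.00 and -0.01 before HGF, 0.17, 0.03 and 0.13 at 0.5 h, -0.19, -0.22 and -0.05 at 2 h, 0.11, 0.69 and 0.26 at 12 h, and 0.21, -0.17 and -0.60 at 24 h. In WT replicates it was at 0.42, 0.34 and 0.14 before HGF, 0.44, 0.62 and 0.57 at 0.5 h, 0.29, 0.05 and 0.05 at 2 h, 0.48, 0.56 and 0.60 at 12 h, and 0.38, 0.64 and -0.30 at 24 h. KO means lay below WT means at all 5 times, and the genotypes did not overlap at 0.5 and 2 h. Averaged over the times Psmd12 fell by 0.32 on the log2 scale (1.25-fold, SE 0.085, adjusted p = 0.0158 in limma), with -0.29 on Cy5 and -0.34 on Cy3 arrays. It stayed called without any 1 of the 30 replicates (-0.37 to -0.28), but not on 1 dye alone (adjusted p = 0.347 on Cy5 and 0.097 on Cy3 arrays).

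Psmd7, the inactive partner of the deubiquitinase in the lid, was the other averaged call. In KO replicates it was at 0.22, 0.04 and 0.01 before HGF, 0.06, -0.03 and 0.30 at 0.5 h, 0.13, 0.04 and -0.31 at 2 h, 0.19, -0.02 and 0.20 at 12 h, and 0.05, 0.27 and -0.26 at 24 h. In WT replicates it was at 0.31, 0.43 and -0.12 before HGF, 0.41, 0.44 and 0.38 at 0.5 h, 0.24, 0.14 and 0.27 at 2 h, 0.40 and 0.52 at 12 h (n = 2), and 0.34, 0.15 and -0.01 at 24 h. All KO replicates were below all WT replicates at 0.5, 2 and 12 h. Averaged, Psmd7 fell by 0.23 (1.17-fold, SE 0.069, adjusted p = 0.0318 in limma), with -0.19 on Cy5 and -0.28 on Cy3 arrays. The call ended, with adjusted p between 0.05 and 0.0697 and values of -0.23 to -0.20, when any 1 of 12 replicates was left out (KO untreated 2 and 3, 0.5 h 1 and 2, 2 h 3, 12 h 2 and 24 h 3; WT untreated 1 and 2, 2 h 3, 12 h 2 and 24 h 1).

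The genes with KO below WT at all 5 times numbered 7, against 6.52% of all probes: the alpha subunits Psma1 and Psma2, the caspase-like catalytic subunit Psmb6, the ATPase Psmc3 and the lid subunits Psmd7, Psmd12 and Psmd13. Psma8, an alpha subunit known from testis, and the lid subunit Psmd11 were above WT at all 5 times (6.91% of probes). Psma8 reached 0.44 at 0.5 h, the highest value of any member there. The other 28 members changed sign between times.

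The catalytic subunits were not called at any time. Psmb6 was at 0.15, -0.07 and 0.10 in KO replicates at 0.5 h, against 0.28, 0.42 and 0.34 in WT replicates, without overlap. Its difference was -0.17 before HGF, -0.29 at 0.5 h, -0.16 at 2 h, -0.33 at 12 h and -0.24 at 24 h, and -0.24 averaged (SE 0.081, adjusted p = 0.0644 in limma; -0.06 on Cy5 and -0.42 on Cy3 arrays). Psmb5, the chymotrypsin-like subunit, was at 0.01, 0.21 and 0.37 in KO replicates at 0.5 h, against 0.57, 0.55 and 0.70 in WT replicates, also without overlap. Its difference there was -0.41 (SE 0.183, adjusted p = 0.204 in limma), with -0.29 on Cy5 and -0.52 on Cy3 arrays, and it lay between -0.16 and 0.12 at the other times. Psmb7, the trypsin-like subunit, was not tested; it was at -0.07, -0.27 and 0.10 in KO replicates at 0.5 h, against 0.23, 0.39 and 0.48 in WT replicates, and at 0.04, -0.06 and 0.04 in KO at 12 h, against 0.19, 0.22 and 0.32 in WT. At 24 h it was at -0.28, -0.05 and -0.42 in KO, against 0.30, 0.45 and -0.22 in WT, where the groups overlapped.

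The deubiquitinase Psmd14 was at 0.21, -0.03 and 0.41 in KO replicates at 0.5 h, against 0.46, 0.60 and 0.50 in WT replicates. At 12 h it was at 0.17, 0.51 and 0.26 in KO, against 0.55, 0.53 and 0.63 in WT. The genotypes did not overlap at either time, and neither difference was called (-0.32 and -0.26, adjusted p = 0.325 and 0.572 in limma). Averaged it differed by -0.16 (SE 0.081, adjusted p = 0.227 in limma).

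At 24 h the called member was Psmb3, a beta subunit without a proteolytic site. It was at -0.16, -0.63 and -0.26 in KO replicates, against 0.17, 0.35 and -0.14 in WT replicates. All KO replicates were below all WT replicates, narrowly so for WT replicate 3. Psmb3 fell by 0.48 in KO (1.39-fold, SE 0.138, adjusted p = 0.0466 in limma), with -0.14 on Cy5 arrays and -0.81 on Cy3 arrays. The call ended without KO replicate 2 (-0.33, adjusted p = 0.231), without WT replicate 1 (-0.45, adjusted p = 0.116) and without WT replicate 2 (-0.36, adjusted p = 0.203), and under 10 of 13 other settings, where the value ranged over -0.81 to -0.14. Leaving out KO replicate 2 or WT replicate 2 gave 0 called members at 24 h, leaving out KO replicate 1 gave 2, KO replicate 3 gave 3 and WT replicate 3 gave 8. Averaged over the times, 11 were called once WT replicate 3 at 24 h was left out. The shares of all probes called in these fits are not given here, so the counts have no background beside them.

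The 24 h differences furthest from 0 were those of Psmg3, Psme4 and Psma6, none of them called, and replicate 2 of KO held an extreme array for Psma6 and Psmg3. Psma6, an alpha subunit, was at 0.15, 2.14 and -0.39 in KO replicates, and its difference of 0.62 became -0.13 (adjusted p = 0.839 in limma) without replicate 2, whose Cy3 array read 3.58. Psmg3, a core assembly chaperone, was at 0.07, -2.96 and 0.05 in KO replicates, and the Cy3 array of the same replicate read -6.46; its difference of -1.16 (adjusted p = 0.114 in limma) became -0.15 without that replicate and was called without KO replicate 1 (-1.67) or 3 (-1.66). Psme4, a nuclear activator, was at 0.87, 0.83 and 0.41 in KO replicates, against 0.78, 0.03 and -0.68 in WT replicates, with overlap. Its difference of 0.66 was not called (SE 0.219, adjusted p = 0.0834 in limma), but was called with scale normalization (adjusted p = 0.0298) and with array set as a term (adjusted p = 0.0104). It was 0.30 without WT replicate 3, not called, and was called without KO replicate 3 (0.81) or without WT replicate 1 (1.03).

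**Figure D3:**
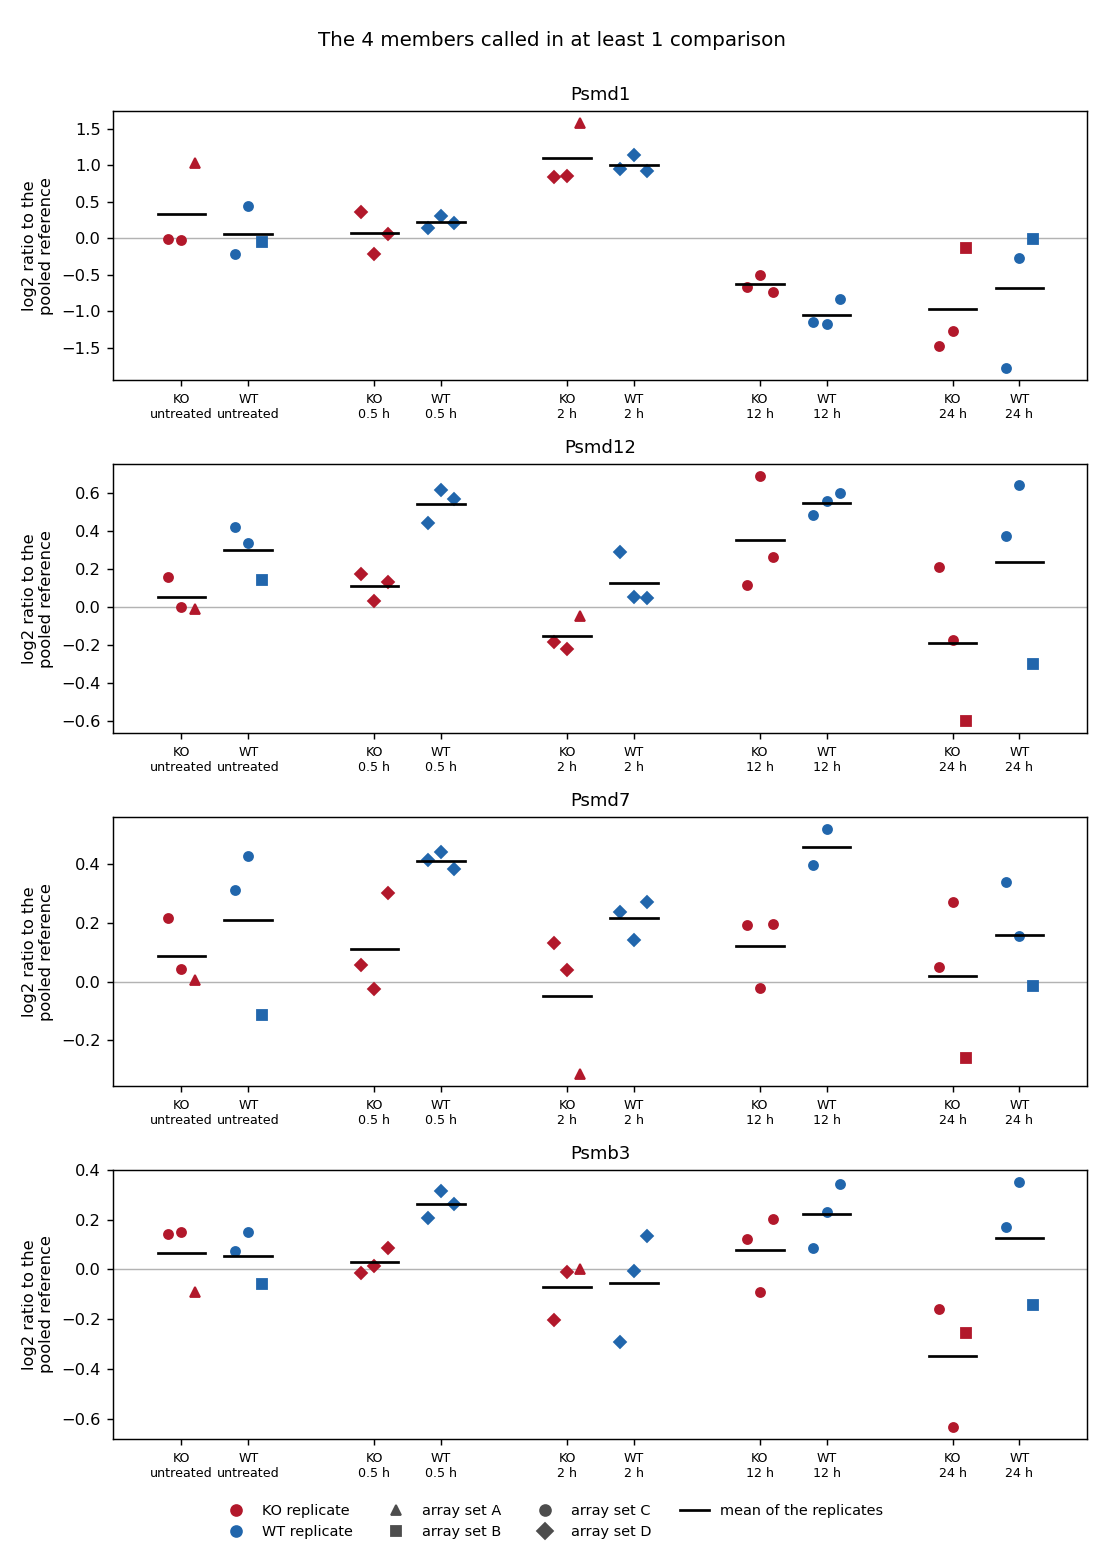
Log2 ratio to the pooled reference of Psmd1, Psmd12, Psmd7 and Psmb3 in each replicate (points; shape gives the array set), with KO left of WT at each time and the bar at the replicate mean; the vertical scales differ between panels. Psmd1 is near 1 at 2 h and below 0 at 12 and 24 h in both genotypes, and the other 3 lie between -0.63 and 0.69.

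Each HGF time was set against untreated cells to ask what the growth factor, with the time in culture, changed. No untreated replicate is in array set D, which holds the 0.5 h replicates and the 2 h replicates except KO replicate 3. At 0.5 and 2 h HGF therefore cannot be told apart from array set either, except through that replicate. The 4 comparisons of a genotype share its untreated replicates and are not independent. In KO cells 0 of 37 members were called at 0.5 h (0.00686% of probes), 2 h (0.0343%) and 12 h (0.13%), with 0, 1 and 1 at an unadjusted p under 0.05 in limma (4.43, 5.92 and 8.37% of probes). At 24 h 1 was called, Psmd1, lower (3.48% of probes in either direction, 2.94% lower), with 5 unadjusted (15.8% of probes). In WT cells 0 were called at 0.5 h (0.123% of probes), 2 h (0.446%), 12 h (5.81%) and 24 h (8.72%), with 2, 5, 3 and 3 unadjusted (14.8, 12.5, 20.2 and 21% of probes).

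In WT cells at 0.5 h the core genes had a median difference of 0.18 (12 of 13 above 0) and the cap genes one of 0.18 (17 of 17 above 0), against 0.036 and 55.2% above 0 over all probes. The member median was 0.36 on Cy5 arrays, -0.0087 on Cy3 arrays, -0.022 with dye profiles removed and 0.039 with the doubtful WT untreated array turned. At 2 h core and cap genes were at -0.16 and -0.11 in WT (12 of 13 and 12 of 17 below 0, against 53.2% of probes). In KO they were at -0.097 and -0.093 (11 of 13 and 12 of 17 below 0, against 51.2% of probes). The direction in KO depended on the dye and on array set: core and cap genes were at -0.21 and -0.26 on Cy5 arrays but 0.061 and 0.145 on Cy3 arrays, and the core median was 0.03 with array set as a term. In WT the 2 h member median was -0.096 on Cy5 and -0.13 on Cy3 arrays. At 12 h the WT medians were 0.12 and 0.24, but the member median was 0.49 on Cy5 and -0.25 on Cy3 arrays and -0.044 with the doubtful array turned. At 24 h core genes were at -0.17 in KO (12 of 13 below 0, against 50.1% of probes) and -0.053 in WT (7 of 13, against 54.9%). Cap genes were at -0.061 in KO and -0.053 in WT. The 24 h member median was -0.011 on Cy5 and -0.18 on Cy3 arrays in KO, and 0.16 on Cy5 and -0.28 on Cy3 arrays in WT. With array set as a term the KO value was 0.021 over all members and 0.062 over cap genes. Within array set C the 12 and 24 h member medians lay between -0.0073 and 0.037 in both genotypes. WT 24 h replicate 2 counts there although its Cy3 array is in set B.

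The difference of the HGF response between KO and WT was tested directly. At 0.5, 2, 12 and 24 h 0 members were called at each time in limma (0.00686, 0.0274, 0.0754 and 0.727% of probes), with 0, 0, 0 and 3 unadjusted (8.77, 4.68, 6.07 and 12.2% of probes). The member medians of these differences were -0.17, 0.0012, -0.10 and -0.046, and none of the 4 kept its sign under every setting. At 0.5 h the median was -0.16 on Cy5 and -0.10 on Cy3 arrays, but 0.036 with dye profiles removed. At 2 h it was -0.20 on Cy5 and 0.19 on Cy3 arrays. At 12 h it was -0.35 on Cy5 and 0.15 on Cy3 arrays, 0.043 with scale normalization, 0.068 with the doubtful array turned and 0.039 with array set as a term. At 24 h it was -0.10 on Cy5 and 0.11 on Cy3 arrays, 0.058 with that array turned and 0.046 with array set as a term.

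**Figure D4:**
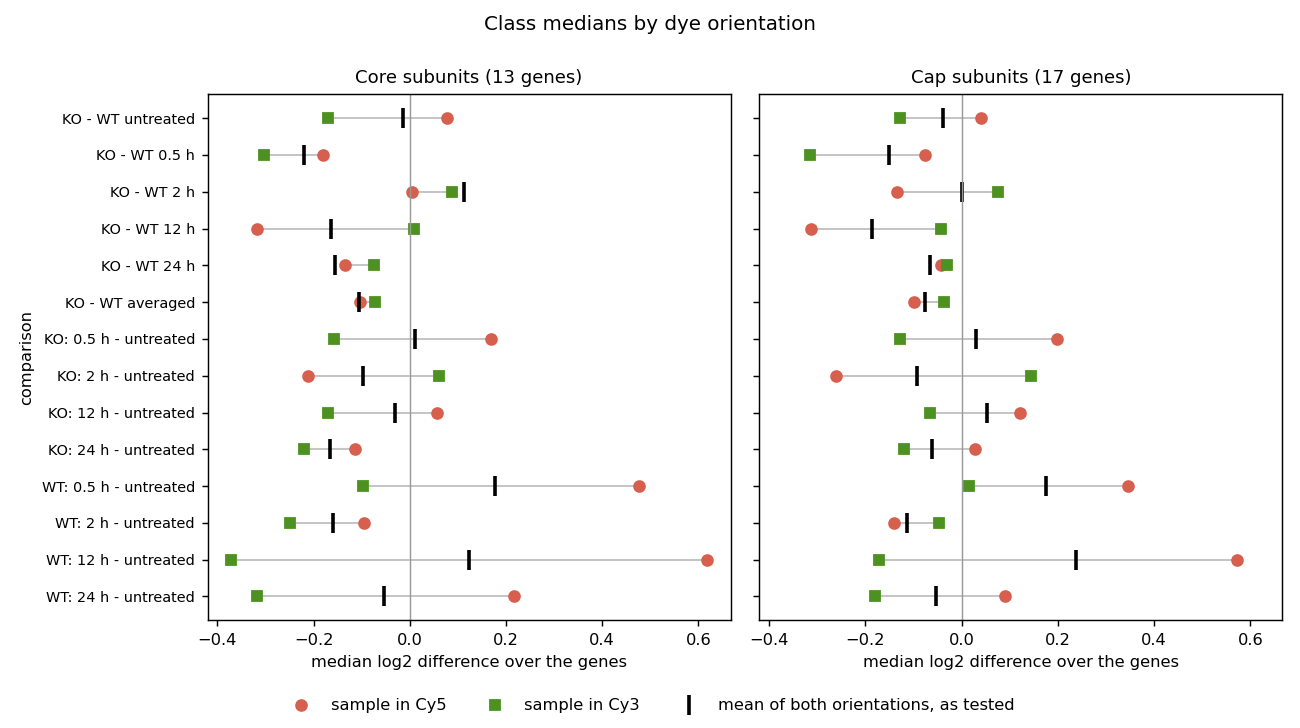
Median log2 difference over the core genes (left) and cap genes (right) in 14 comparisons, from the arrays with the sample in Cy5 (circles), in Cy3 (squares) and from the mean of both orientations (black bars). In both panels the orientations lie on opposite sides of 0 for untreated KO against WT. The same holds against untreated for KO at 0.5, 2 and 12 h and for WT at 12 and 24 h. In the core panel only it also holds for KO against WT at 12 h and WT at 0.5 h against untreated. In the cap panel only it also holds for KO against WT at 2 h and KO at 24 h against untreated. For KO against WT averaged over time they lie close together and below 0.

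Psmd1, the scaffold subunit of the cap that holds a ubiquitin receptor, had the widest range of group means. In KO replicates it was at -0.01, -0.03 and 1.02 before HGF, 0.36, -0.21 and 0.06 at 0.5 h, 0.84, 0.86 and 1.57 at 2 h, -0.66, -0.50 and -0.74 at 12 h, and -1.48, -1.27 and -0.14 at 24 h. In WT replicates it was at -0.22, 0.43 and -0.05 before HGF, 0.14, 0.31 and 0.21 at 0.5 h, 0.94, 1.14 and 0.93 at 2 h, -1.15, -1.17 and -0.83 at 12 h, and -1.78, -0.27 and -0.01 at 24 h. Both genotypes were high at 2 h and low at 12 h, and at 24 h the replicates of set B (replicate 3 of each genotype) were near 0, KO replicates 1 and 2 and WT replicate 1 were low, and WT replicate 2, whose Cy3 array lies in set B, was between.

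Against untreated cells Psmd1 fell by 1.29 in KO at 24 h (2.45-fold, SE 0.356, adjusted p = 0.043 in limma), with -1.15 on Cy5 and -1.44 on Cy3 arrays. The same comparison in WT gave -0.75 (adjusted p = 0.23), with overlap, and lay between -1.08 and -0.20 with 1 replicate left out, nearest 0 without WT 24 h replicate 1; the difference between the genotypes was -0.55 (adjusted p = 0.702). At 12 h it was -0.96 in KO and -1.11 in WT (adjusted p = 0.373 and 0.0652), and at 2 h 0.76 in KO and 0.95 in WT (adjusted p = 0.836 and 0.244), so these values missed the threshold. The 2 h values, except for KO replicate 3, also set array set D against other sets. The KO value at 12 h was -0.62 without untreated replicate 3. The 24 h call in KO ended without any 1 of KO untreated replicates 1, 2 and 3 or KO 24 h replicates 1 and 2, with values of -1.47 to -0.95 and adjusted p of 0.0694 to 0.216. Psmd2, the other large scaffold subunit, differed by -0.25 to 0.24 at the 4 HGF times over both genotypes, with no value called.

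The activators differed among themselves. Psme1, a subunit of the interferon-induced activator, was at -0.64, -0.58 and -0.43 in KO replicates at 0.5 h, against -0.13, -0.15 and -0.14 in WT replicates. The genotypes did not overlap, but the difference of -0.41 was 0.11 on Cy5 and -0.93 on Cy3 arrays and was not called (adjusted p = 0.207 in limma). At 12 h in WT Psme1 was at -0.96, -0.89 and -0.84, against -0.58 and 0.09 in untreated WT (n = 2), a difference of -0.65 (SE 0.208, adjusted p = 0.064 in limma). Psme3, a nuclear activator, was at 0.40, 0.33 and 0.60 in KO replicates at 0.5 h, against 0.13, 0.52 and 0.30 in WT replicates, and none of its 18 comparisons was called.

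The immunoproteasome subunits, which replace catalytic core subunits after interferon, are given beside the core. Psmb9 was at -1.46, -1.42 and -1.08 in WT at 12 h of HGF, against -0.90, -0.62 and 0.21 in untreated WT, and fell by 0.88 (adjusted p = 0.0473 in limma). It was 1 of 2 tested subunits called, against 5.81% of probes. The 0.21 belongs to untreated replicate 3, whose Cy5 array is the doubtful one. In KO at 12 h Psmb9 differed by -0.63 (adjusted p = 0.558 in limma), and the difference of responses, 0.25, was not called. Psmb8 was at -1.46, -1.31 and -1.16, against -0.77, -0.66 and -0.14, a difference of -0.78 that was not called. Psmb8 had its highest group means at 2 h, with -0.06, 0.04 and 0.39 in KO replicates and 0.35, -0.01 and 0.15 in WT replicates. The constitutive subunits Psmb5 and Psmb6 differed by 0.30 and -0.0092 in WT at 12 h against untreated, neither called.

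Of 33 other genes of the ubiquitin and proteasome pathway, 18 were tested and 4 were called in some comparison. At 24 h 2 were higher and 1 lower in KO (3 of 18, against 4.77% of probes called), and averaged also 2 higher and 1 lower (10.1% of probes). Nfe2l2, a transcription factor of the oxidative stress response, was at 0.75, 0.38 and 0.75 in KO replicates at 12 h, against -0.16, -0.28 and -0.11 in WT replicates, and at 1.16, 0.96 and 0.87 in KO at 24 h, against 0.13, 0.02 and -0.60 in WT. It rose in KO by 0.81 at 12 h and 1.15 at 24 h (adjusted p = 0.0122 and 0.000247 in limma), with the same sign on both dyes. Of the tested members with the element letters in their promoter window, Psmb5, Psmb6, Psmd9, Psmd12 and Psme4 differed by -0.08, -0.24, -0.03, -0.43 and 0.66 at 24 h, none called. Ube2d3, a ubiquitin-conjugating enzyme, was at -0.36, -0.44 and -0.08 in KO at 24 h, against -0.77, -1.06 and -0.98 in WT. At 24 h Ube2d3 was higher in KO than in WT by 0.64 (adjusted p = 0.00916 in limma). Against untreated cells it fell in WT by 1.11 at 24 h of HGF (adjusted p = 1.72e-05 in limma). The KO mean also went down, from 0.18 untreated to -0.30 at 24 h, which was not called. Nor was the difference of the 24 h response between the genotypes. Zfand2a, a proteasome-binding stress protein, fell in KO by 0.47 at 24 h and 0.27 averaged (adjusted p = 0.0328 and 0.0022 in limma). Zfand5 rose in KO by 0.94 at 0.5 h (adjusted p = 0.0361), but with -0.08 on Cy5 and 1.96 on Cy3 arrays.

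At 24 h hepatocyte markers moved as well. The median of the 7 tested markers was -0.86, -0.81 and -0.16 in KO replicates at 24 h of HGF, against -0.02, 0.0045 and -0.05 in untreated KO, and -0.69, -1.05 and -0.69 in WT at 24 h, against -0.13, -0.10 and -0.22 in untreated WT. At 24 h of HGF Ttr, Apoa1 and Serpina1b fell in both genotypes, by 1.19, 1.06 and 0.89 in KO and by 1.32, 1.60 and 0.92 in WT, and so did Marco of macrophages (0.59 in KO, 0.77 in WT) and Col3a1 of stellate cells (1.07 in KO, 0.79 in WT). The list median was -0.31 in KO and -0.30 in WT over 5 macrophage markers. Over 3 stellate cell markers it was -0.03 in KO and -0.11 in WT. The WT value of Serpina1b was -0.12 on Cy5 and -1.72 on Cy3 arrays. Cps1 was called lower in KO at 24 h (-0.98). Hepatocyte markers called lower already at 12 h were Cps1 in KO (-1.38) and WT (-1.26) and Apoa1 in WT (-1.06). In WT at 24 h Mpeg1 (-1.52) and Cftr (-1.09) also fell and Krt7 rose (0.61). The 24 h response of Krt7 differed between the genotypes (-0.97, adjusted p = 0.00343 in limma). Their part in the 24 h values of Psmd1 and Psmb3 was not tested.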

How the data were processed

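The authors deposited a table of normalized log2 ratios; how they normalized it, its log base and its numerator are not given in the sources used here, and log2 was taken from the range (largest absolute value 11.6). Between 17356 and 21511 of 21997 probes had a value on an array, and the number of replicates limits the precision. Array medians were set to 0, and the Cy5 and Cy3 array of a replicate were averaged. A probe was tested if at least 2 replicates of every group had both orientations, which left 14580 probes. limma 3.58.1 in R 4.3.3 (statmod 1.5.0) fitted 1 mean per group to 30 replicates (20 residual and 4.48 prior degrees of freedom), two-sided, with Benjamini-Hochberg adjustment over all tested probes and calls at an adjusted p under 0.05. The method was run on simulated data with known changes and independent noise. That simulation held no dye effects, array sets, extreme arrays or unequal group spread, so it does not cover these properties of the arrays. Named with replicate values are called members and Psmb5, Psmb6, Psmb7, Psmd14 and Psme1 to Psme3; Psma6, Psma8, Psmg3, Psme4 and Psmd2 were added after their values were seen. From the other lists called genes are named. Members and lists were chosen with earlier results of these data known. Samples were not paired by replicate number. For 10 of 30 replicates the mean correlation with other times of the genotype was highest for the same number. With array set partly tied to replicate number, this cannot exclude pairing. Times were taken from the titles, since the treatment field gives 0.5 h for 12 h samples; the dose also appears in nM.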

Additional observations from a re-analysis of the deposited data

How the results depend on the processing

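The 4 called values kept their sign in the alternatives run, and Psma6 in KO against WT at 24 h reversed to -0.13 without KO replicate 2 (-0.13 to 1.13 over the replicates left out). Calls changed more easily, and the cause was not tested. The share of all probes called under each alternative is not given here. The counts below therefore cannot be read as a result about the members. For KO against WT at 0.5 h, 0 members were called as reported, but 3 on Cy3 arrays only, 6 with weights by group spread, 2 with array set as a term, 4 with only the compared groups, 1 where 1 orientation was enough and 6 within array set D. At 2 h, 1 was called with scale normalization and 1 with weights (0 as reported). At 24 h the 1 call became 0 without centring, on Cy5 or on Cy3 arrays only, with the sign of 1 WT untreated array turned, with weights, with only the compared groups, where 1 orientation was enough and within set C, and 3 with array set as a term. For HGF 24 h in KO the 1 call became 0 on Cy3 arrays only, with dye profiles removed, with weights, with only the compared groups, where 1 orientation was enough and within set C, and 2 with the set term. For HGF 2 h in WT (0 as reported) scale normalization gave 4, Cy3 arrays 1 and the turned array 1. For HGF 12 h in WT (0 as reported) 1 was called on Cy5 arrays, Cy3 arrays, with profiles removed, with the turned array, with the set term and where 1 orientation was enough. For HGF 24 h in WT scale normalization gave 1, and for the 24 h difference of responses the set term gave 1 (0 as reported in both). The averaged comparison (2 as reported) gave 0 on Cy5 arrays, 1 on Cy3 arrays, 4 with the turned array, 9 with the set term and 1 under the stricter probe filter, which left Psmd7 untested. The restrictions to array sets were chosen after seeing the data.

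Leaving out 1 replicate gave 0 to 8 calls for KO against WT at 24 h, 0 to 2 for HGF 24 h in KO, 0 to 1 for HGF 12 h in WT, 0 to 3 for HGF 24 h in WT, 0 to 1 for the 24 h difference of responses and 1 to 11 averaged, with the highest count in both genotype comparisons when WT 24 h replicate 3 was left out. In the other 12 comparisons no member was called when a replicate was left out. For these fits too the share of all probes called is not given here. A replicate block (correlation -0.0023) changed no call: the averaged Psmd12 value stayed at -0.32 (adjusted p = 0.0152) and Psmd7 at -0.23 (adjusted p = 0.0306), and Psmd1 in KO at 24 h at -1.29 (adjusted p = 0.0439).

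With 3 replicates a group, the SE of a member's difference between groups had a median of 0.18 (0.10 to 0.42).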
